A study of Mus musculus with 10 samples.

Results

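The macrophages of the brain's borders were followed through 10 marker genes in CD11b-selected microglia of the mouse midbrain and striatum. The 10 genes, Mrc1, Cd163, Lyve1, Dab2, Clec10a, Mgl2, Pf4, F13a1, Cbr2 and Ms4a7, are known markers of these cells, listed by name with earlier results of these data known, and all 10 were found among the 53715 genes counted. RNA was taken from untreated C57BL/6 mice aged 3 months, perfused with cold PBS before dissection. Cells were released with papain, cleared on Percoll and selected with CD11b MicroBeads, and their polyadenylated RNA was sequenced in bulk with MARS-seq, which reads the 3′ ends of transcripts. The pilot cohort had 2 midbrain and 2 striatum libraries, and the second cohort had 2 midbrain and 2 striatum libraries whose labels agree on the region. The labels of 2 further libraries of the second cohort name both regions, so these 2 libraries entered no group. By the study's account the libraries of a region come from different mice, and both regions of each mouse were examined, but neither it nor the labels say which libraries share a mouse. Bead selection with CD11b takes any myeloid cell that carries this integrin, and the study's own check of purity by flow cytometry was not analysed here.

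Border macrophages live along the vessels that enter the brain, in the meninges and in the choroid plexus, whereas microglia live within the tissue. Both are myeloid cells that carry CD11b, and border macrophages are known for taking up material from blood and cerebrospinal fluid through scavenger and lectin receptors. The markers followed here are textbook genes of that program, and several are also expressed by other cells: Pf4 by platelets and megakaryocytes, F13a1 by monocytes and platelets, Lyve1 by lymphatic endothelium, and Mgl2 and Clec10a by dendritic cells.

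Every one of the 10 genes was higher in the midbrain than in the striatum, in each cohort and without overlap between the assigned libraries of the 2 regions, against 9.06% of all genes tested. With the 2 libraries of conflicting labels added in the region of their title, 0 of the 10 were without overlap. The share of all genes without overlap was not counted for that placement. The summed level of the 10 genes was 1860 ± 229 CPM (SD, n = 2) in the pilot midbrain and 815 ± 241 in the pilot striatum, a ratio of 2.28. In the second cohort it was 2738 ± 378 in the midbrain and 391 ± 6.33 in the striatum, a ratio of 7.01. The deposited values were read counts per gene, and CPM are these counts brought to a common library size with TMM factors, which correct for differences in composition between libraries. In bulk libraries, more cells of a type and more RNA per cell cannot be told apart.

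**Figure D1:**
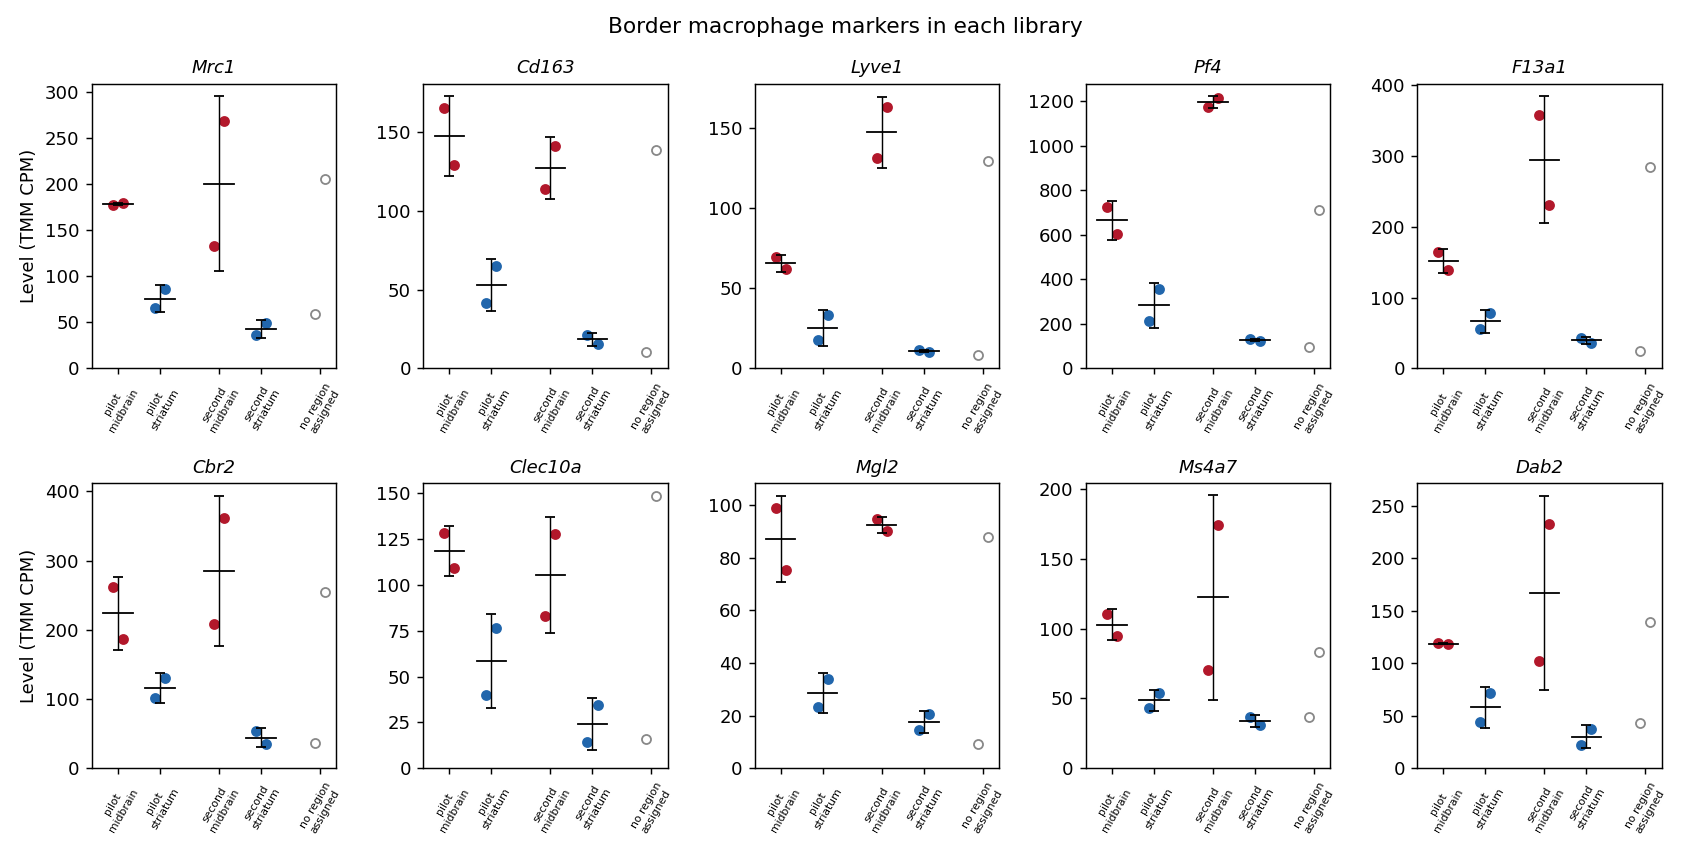
Level of each of the 10 border macrophage markers (y axis, TMM CPM, starting at 0) in each library, with the mean (horizontal line) and SD (bar) of each group of 2 libraries and open circles for the 2 libraries given no region. In all 10 panels both midbrain libraries of a cohort lie above both of its striatum libraries, and the ratio of the region means is larger in the second cohort for each gene, as for Lyve1 with 131 and 163 CPM in the midbrain against 11.3 and 10.3 CPM in the striatum.

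The libraries held between 575709 counts (second striatum replicate 3) and 8463782 counts (pilot striatum replicate 2), so 3 counts, used as the floor, correspond to 0.351 to 5.16 CPM. All 10 genes were above this floor in all 8 libraries. In the shallowest library they had between 6 counts (Lyve1) and 73 counts (Pf4), and the 10.3 CPM of Lyve1 there has an exact Poisson 95% interval of 3.78 to 22.4 CPM, which covers counting error only. No 2 libraries agreed within sampling noise (lowest chi-square per degree of freedom 5.74). The genes of homeostatic microglia, among them Csf1r and Selplg with the highest counts of that list, were expressed in every library, with summed levels of 20158 to 35468 CPM, as the label microglia states.

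The promoters of 5 of the genes are printed here, so that members that moved together can be compared at their start sites: the endocytic receptors Mrc1 and Cd163, which differ most in matches, and the secreted proteins and enzyme Pf4, F13a1 and Cbr2. Each window runs from 250 bases before to 50 bases after a RefSeq start site (GRCm38.p6), written 5′ to 3′ on the strand of the gene. Capitals mark matches to the PU box GAGGAA (or its reverse complement TTCCTC), the core of the motif bound by PU.1, a transcription factor of myeloid cells, and to the MAF motif TGCTGA (or TCAGCA), bound by transcription factors of the MAF family.
Mrc1, chr2:14229164-14229463, plus strand: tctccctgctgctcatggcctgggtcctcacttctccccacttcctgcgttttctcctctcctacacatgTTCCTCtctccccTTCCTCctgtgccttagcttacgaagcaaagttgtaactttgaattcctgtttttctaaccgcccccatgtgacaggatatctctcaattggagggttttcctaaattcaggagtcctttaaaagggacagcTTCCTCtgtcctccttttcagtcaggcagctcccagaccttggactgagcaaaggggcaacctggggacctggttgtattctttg
Pf4, chr5:90772185-90772484, plus strand: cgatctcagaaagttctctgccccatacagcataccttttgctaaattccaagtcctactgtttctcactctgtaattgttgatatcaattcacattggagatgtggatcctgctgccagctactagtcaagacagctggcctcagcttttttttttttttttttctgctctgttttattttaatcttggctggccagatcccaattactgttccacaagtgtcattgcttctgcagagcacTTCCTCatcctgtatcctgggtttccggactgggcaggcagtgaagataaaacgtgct
F13a1, chr13:37050195-37050494, minus strand: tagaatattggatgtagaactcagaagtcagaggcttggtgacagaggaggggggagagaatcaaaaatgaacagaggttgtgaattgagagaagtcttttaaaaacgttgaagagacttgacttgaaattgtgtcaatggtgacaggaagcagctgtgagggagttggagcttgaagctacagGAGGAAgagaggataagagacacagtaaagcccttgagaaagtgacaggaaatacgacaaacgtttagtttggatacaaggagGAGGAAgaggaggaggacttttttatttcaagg
Cbr2, chr11:120731972-120732271, minus strand: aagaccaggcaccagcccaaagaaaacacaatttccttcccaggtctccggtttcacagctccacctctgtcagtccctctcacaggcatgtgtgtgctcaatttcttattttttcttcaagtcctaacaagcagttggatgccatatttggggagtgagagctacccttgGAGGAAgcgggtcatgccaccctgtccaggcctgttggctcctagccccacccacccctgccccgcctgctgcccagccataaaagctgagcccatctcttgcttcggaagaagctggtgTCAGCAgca
Cd163, chr6:124304401-124304700, plus strand: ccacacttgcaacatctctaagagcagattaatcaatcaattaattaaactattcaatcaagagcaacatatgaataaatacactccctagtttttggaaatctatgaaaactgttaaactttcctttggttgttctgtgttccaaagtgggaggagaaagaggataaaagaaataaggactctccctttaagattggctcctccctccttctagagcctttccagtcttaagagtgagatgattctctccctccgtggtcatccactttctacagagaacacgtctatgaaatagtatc
Windows were found for 8 of the 10 genes, 11 windows in all, and Lyve1 and Clec10a had none in the table. The PU box was present in 9 of these 11 windows, belonging to 7 of the 8 genes, against 28.3% of all 32817 promoter windows. Mrc1 had 3 matches, at positions -180, -167 and -35 from the start site, F13a1 had 2 in the window printed, at -66 and 18, and the Pf4 match began at -8. The MAF motif was present in 2 of the 11 windows, those of Cbr2 and the upstream start site of Dab2, against 19.5% of all windows. Cd163 had neither motif in its window. A match is a description of letters, and binding at these positions was not measured.

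Mrc1 and Cd163 are endocytic receptors. Mrc1 (chromosome 2, 14229392 to 14332057, plus strand) encodes the mannose receptor. Its level was 178 and 180 CPM in the pilot midbrain libraries, 65.4 and 86.3 in the pilot striatum, 133 and 268 in the second midbrain, and 36.4 and 49.8 in the second striatum. Midbrain and striatum did not overlap, and the second midbrain libraries differed from each other by more than those of the pilot. The log2 fold change, midbrain over striatum, was 1.19 (SE 0.20) in the pilot and 2.23 (SE 0.42) in the second cohort. Cd163 (chromosome 6, 124304656 to 124330527, plus strand) encodes the scavenger receptor for hemoglobin bound to haptoglobin. Its level was 165 and 129 CPM in the pilot midbrain, 41.5 and 64.8 in the pilot striatum, 114 and 142 in the second midbrain, and 21.5 and 15.5 in the second striatum. All 4 midbrain libraries were above all 4 striatum libraries. Midbrain exceeded striatum by a log2 fold change of 1.42 (SE 0.25) in the pilot and 2.64 (SE 0.39) in the second cohort.

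Lyve1 and Dab2 complete the endocytic group. Lyve1 (chromosome 7, 110850607 to 110863239, minus strand) encodes a hyaluronan receptor. Its level was 69.3 and 61.8 CPM in the pilot midbrain, 17.4 and 33.1 in the pilot striatum, 131 and 163 in the second midbrain, and 11.3 and 10.3 in the second striatum. It was the gene with the widest separation of the regions in the second cohort, a CPM ratio of 13.6 against 2.59 in the pilot. The regional log2 fold change was 1.33 (SE 0.30) in the pilot and 3.67 (SE 0.43) in the second cohort. Dab2 (chromosome 15, 6299788 to 6440712, plus strand) encodes an adaptor of clathrin-mediated uptake. Its level was 119 and 118 CPM in the pilot midbrain, 44.2 and 72.0 in the pilot striatum, 102 and 233 in the second midbrain, and 22.6 and 37.8 in the second striatum. Its second midbrain libraries were the most unequal of its groups, and the lower of them was still above both second striatum libraries. In log2, the midbrain excess was 1.00 (SE 0.25) in the pilot and 2.55 (SE 0.50) in the second cohort. An exon of Gm18888 on the opposite strand overlaps Dab2, and counting did not use strand.

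Clec10a and Mgl2 are neighboring C-type lectin genes on chromosome 11 that bind galactose-type sugars. Their longest coding transcripts were identical at 86.7% of 1040 aligned bases and shared an exact run of 183 bases, so reads could in part be uncertain between them. The last 300 bases of the Mgl2 coding transcripts, where 3′ reads fall, shared at most 14 bases with Clec10a, and those of the Clec10a coding transcripts shared up to 183 bases with Mgl2. Clec10a (70156197 to 70170834, plus strand) was at 128 and 109 CPM in the pilot midbrain, 40.2 and 76.7 in the pilot striatum, 83.0 and 128 in the second midbrain, and 14.2 and 34.4 in the second striatum. The regions did not overlap within a cohort, and the pilot striatum replicate 2 came close to the lower second midbrain library. The fitted log2 fold change was 1.01 (SE 0.29) in the pilot and 2.51 (SE 0.45) in the second cohort. Mgl2 (70130329 to 70137550, plus strand) was at 98.8 and 75.5 CPM in the pilot midbrain, 23.1 and 33.9 in the pilot striatum, 94.6 and 90.3 in the second midbrain, and 14.5 and 20.6 in the second striatum. All 4 midbrain libraries were above all 4 striatum libraries, and the midbrain libraries of the cohorts overlapped. In the fits, the log2 fold change reached 1.54 (SE 0.26) in the pilot and 2.51 (SE 0.38) in the second cohort.

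Pf4, F13a1 and Cbr2 encode secreted proteins or enzymes. Pf4 (chromosome 5, 90772435 to 90773383, plus strand) encodes the chemokine CXCL4. Its level was 726 and 603 CPM in the pilot midbrain, 214 and 356 in the pilot striatum, 1176 and 1215 in the second midbrain, and 132 and 125 in the second striatum. The groups were separate in every pairing of region and cohort, with the second midbrain highest and the second striatum lowest. Midbrain over striatum, the log2 fold change was 1.22 (SE 0.26) in the pilot and 3.19 (SE 0.25) in the second cohort. F13a1 (chromosome 13, 36867178 to 37050244, minus strand) encodes the A subunit of coagulation factor XIII, and its exons overlap Gm30489 on the opposite strand. Its level was 164 and 139 CPM in the pilot midbrain, 55.2 and 77.9 in the pilot striatum, 358 and 231 in the second midbrain, and 43.3 and 36.1 in the second striatum. All 4 groups were separate here too. The log2 fold change was 1.14 (SE 0.22) in the pilot and 2.78 (SE 0.35) in the second cohort. Cbr2 (chromosome 11, 120729489 to 120732114, minus strand) encodes a carbonyl reductase. Its level was 261 and 186 CPM in the pilot midbrain, 101 and 131 in the pilot striatum, 208 and 362 in the second midbrain, and 53.5 and 34.4 in the second striatum. The midbrain libraries of both cohorts overlapped each other and stood above every striatum library. The log2 fold change was 0.89 (SE 0.23) in the pilot and 2.51 (SE 0.39) in the second cohort.

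Ms4a7 (chromosome 19, 11321039 to 11336146, minus strand) encodes a membrane protein of the MS4A family and is widely used to tell border macrophages from microglia. Its level was 111 and 94.99 CPM in the pilot midbrain, 43.2 and 54.0 in the pilot striatum, 70.4 and 174 in the second midbrain, and 36.7 and 30.9 in the second striatum. The regions did not overlap, and the second midbrain libraries again lay far apart. The log2 fold change was 1.02 (SE 0.21) in the pilot and 1.63 (SE 0.49) in the second cohort, and the second cohort's 95% interval, 0.55 to 2.70, covered the pilot value.

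The separation of the libraries was counted over the whole set. All 10 genes had both midbrain libraries above both striatum libraries in each cohort, against 1273 of 14053 genes tested (9.06%). The order of the 4 groups differed little among the genes. The mean was highest in the second midbrain for 8 of the 10 (Cd163 and Clec10a were highest in the pilot midbrain), followed by the other midbrain group, the pilot striatum and the second striatum. Both pilot striatum libraries were above both second striatum libraries for 10 of 10 genes, against 26.2% of all genes tested. Both second midbrain libraries were above both pilot midbrain libraries for Lyve1, Pf4 and F13a1, against 25.9% of all genes, and for the other 7 genes the midbrain libraries of the cohorts overlapped. For the level averaged over regions, the cohort term of the joint fit passed an adjusted p of 0.05 for none of the 10 genes (limma, adjusted p from 0.188 to 0.953), against 1480 of 14053 genes (10.5%) in either direction.

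Within a group, the genes moved together in some places and apart in others. Pilot striatum replicate 2 was above replicate 1 for 10 of 10 genes, and pilot midbrain replicate 1 was above replicate 2 for 9, with Mrc1 as the exception. Second midbrain replicate 3 was above replicate 1 for 8 genes, whereas F13a1 and Mgl2 were higher in replicate 1. The summed monocyte markers went the other way in these 2 libraries, at 3204 CPM in replicate 1 and 697 CPM in replicate 3, and their part in the F13a1 level was not tested. In the second striatum, 6 genes were higher in replicate 1 and 4 in replicate 3, the shallowest library.

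The regional change was then tested against the spread between libraries, with voom and limma fitted over all genes. In the pilot cohort, 10 of 10 genes were called higher in the midbrain at the study's cutoff of an unadjusted p under 0.01, against 313 of 14972 genes (2.09%). None of the 10 passed an adjusted p of 0.05 in the pilot (adjusted p from 0.128 for Mgl2 to 0.356 for Clec10a), where 0.00668% of all genes passed in this direction. Without pilot midbrain replicate 1, 5 of the 10 were called, namely Mrc1, Cd163, Lyve1, F13a1 and Mgl2, and 108 of all genes were called against 395 with it. In the second cohort, 10 of 10 were called at an unadjusted p under 0.01, against 388 of 13486 genes (2.88%), and 7 passed an adjusted p of 0.05, against 0.356% of all genes. Those 7 did not include Mrc1 (0.058), Dab2 (0.061) and Ms4a7 (0.253). Without second striatum replicate 1, 6 of the 10 were called in the second cohort, and 798 of all genes against 468 with it. The median log2 fold change of the 10 genes was 1.17 in the pilot and 2.53 in the second cohort, whereas the median over all genes was 0.02 in the pilot and -0.000956 in the second cohort.

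**Figure D2:**
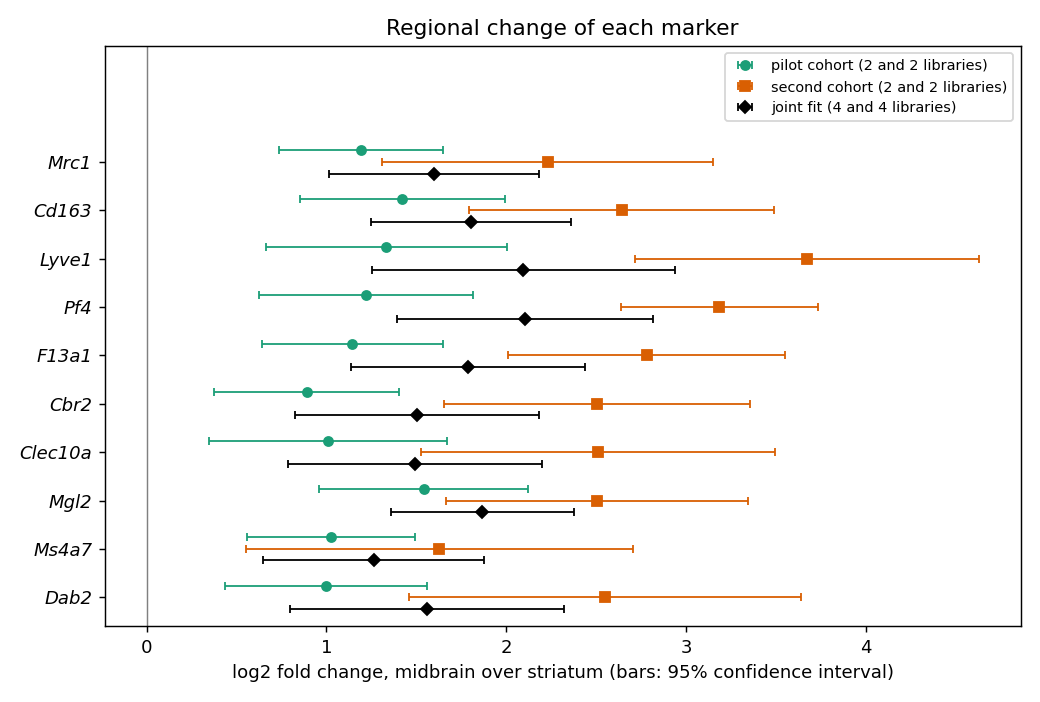
Log2 fold change, midbrain over striatum (x axis), of each marker in the pilot cohort, the second cohort and the joint fit, with bars for the 95% confidence interval. No interval crosses 0, and the second cohort's estimate is to the right of the pilot's for each of the 10 genes, most widely for Lyve1 (3.67 against 1.33) and Pf4 (3.19 against 1.22).

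In the joint fit of both cohorts, with 4 libraries a region and the cohort as a covariate, 7 of the 10 genes were called higher in the midbrain at an adjusted p under 0.05, against 137 of 14053 genes (0.975%), and none was called lower. Mgl2 had the lowest adjusted p, 0.014, at a log2 fold change of 1.87 (SE 0.23), and ranked 3rd of all genes by p. Pf4 and Lyve1 had the largest changes of the 10, 2.11 (SE 0.33, adjusted p 0.018) and 2.09 (SE 0.39, adjusted p 0.032). Cd163 was at 1.80 (SE 0.25, adjusted p 0.017), F13a1 at 1.79 (SE 0.30, adjusted p 0.021), Mrc1 at 1.5997 (SE 0.27, adjusted p 0.022) and Cbr2 at 1.504 (SE 0.31, adjusted p 0.044). Clec10a, Ms4a7 and Dab2 missed the threshold, with log2 fold changes of 1.49, 1.26 and 1.56 and adjusted p of 0.055, 0.060 and 0.061. With edgeR's quasi-likelihood test and with DESeq2, 10 of 10 were called, where 237 and 544 of all genes were called in either direction. The count moved with single libraries, as did the count over all genes, 149 in either direction with all 8 libraries. It was 0 of 10 without pilot midbrain replicate 1, without pilot striatum replicate 1, without second striatum replicate 1 and without second striatum replicate 3, where 0, 9, 0 and 3 of all genes were called, and 10 of 10 without pilot striatum replicate 2, where 194 were called. In each of these fits all 10 genes kept a positive change, and 54.4% of all genes were positive with all 8 libraries. The median of the 10 ran from 1.37 without second striatum replicate 1 to 2.06 without pilot striatum replicate 2.

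The count also depended on the region given to the 2 libraries left out. With both added in the region of their title, 0 of 10 genes were called in the second cohort and 0 of 10 in the joint fit, where 132 and 0 of all genes were called, and the median log2 fold change of the 10 in the joint fit was 0.93. With both added in the region of their other label, 10 of 10 were called in each fit, where 692 and 440 of all genes were called, and the median was 1.83. All 10 changes were positive under either placement.

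**Figure D3:**
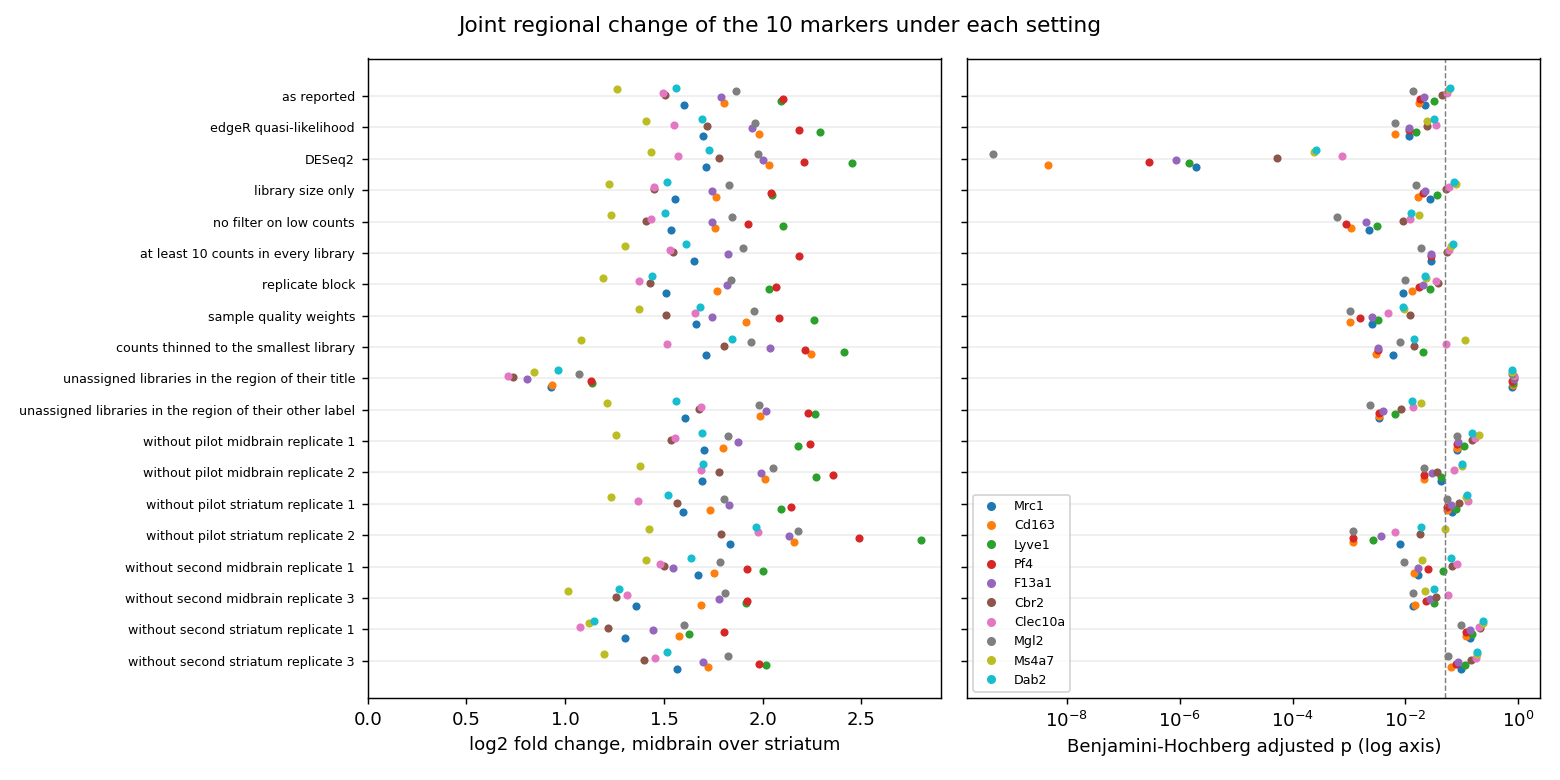
Joint log2 fold change (left, x axis) and its Benjamini-Hochberg adjusted p (right, log axis, dashed line at 0.05) of each marker under each setting (y axis), with a color for each gene. Every log2 fold change lies above 0. The adjusted p of all 10 genes lies to the right of the line when pilot midbrain replicate 1, pilot striatum replicate 1, or either second striatum library is left out. The same holds when the 2 unassigned libraries are placed by their title. As reported, Clec10a, Ms4a7 and Dab2 already lie to the right of it.

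The second cohort showed the larger regional change for all 10 genes, and the difference between cohorts was tested as an interaction. Over all 14053 genes, 48.8% had a positive interaction. No member and none of 14053 genes passed an adjusted p of 0.05 (0%) with limma or with edgeR's quasi-likelihood test, and DESeq2 called 2 genes, Pf4 among them. At an unadjusted p under 0.05, limma gave 771 genes in either direction, and 340 (2.42%) with the larger midbrain excess in the second cohort, among them 7 of the 10 markers. Pf4 ranked first of all genes by p, with an interaction of 1.94 (SE 0.36, unadjusted p 0.00020, adjusted p 0.860). Lyve1 ranked 9th, with 2.30 (SE 0.57, unadjusted p 0.0019), and F13a1 20th, with 1.59 (SE 0.43, unadjusted p 0.0037). Mrc1, Mgl2 and Ms4a7 did not pass an unadjusted p of 0.05, and the interval for Ms4a7 ran from -0.77 to 1.89. The median interaction of the 10 genes was 1.49 with all 8 libraries. With 1 library left out at a time, it ran from 1.06 without pilot striatum replicate 2 to 1.78 without pilot striatum replicate 1. With the 2 libraries given no region added by their title, the interaction was negative for all 10 genes, with a median of -0.44, and with both added by their other label it was positive for all 10. The share of all genes of either sign was not counted for these placements.

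The levels of the 10 genes followed one profile. After centering each gene on its cohort mean, the 45 pairs of genes correlated over the 8 libraries with Pearson r from 0.832 to 0.999 (median 0.946), values that share the libraries and the step between regions and are given as a description. Lyve1 was most like the mean of the other 9 (r = 0.991) and Ms4a7 least (r = 0.931). Among 12764 genes with enough counts, the 10 whose profile was most like the mean of the markers were Cdh4, Msr1, Rps19, Cd24a, Ahr, Ripor2, Stk17b, Serpinb8, Cmah and H2-Eb1, with r from 0.996 to 0.975. Msr1 encodes a scavenger receptor of macrophages, Ahr the aryl hydrocarbon receptor and H2-Eb1 a chain of MHC class II. The joint log2 fold change of these 10 genes ran from 0.64 for Rps19 to 2.80 for H2-Eb1, with 1.47 for Cdh4, 1.36 for Msr1 and 1.90 for Ahr. They were chosen for a profile like that of the markers over the same 8 libraries. A higher midbrain level was therefore built into the choice, and the values are a description.

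A list of 30 further genes of border macrophages was examined, of which 26 passed the filter on low counts. Of the 26, 5 were called higher in the midbrain in the joint fit, against 0.975% of all genes, and none lower. A positive change was found for 22, against 54.4% of all genes. The median log2 fold change was 1.10, against 1.69 for the 10 markers and 0.04 for all genes. The 5 were Igfbp4, which binds insulin-like growth factors, the lectins Clec4n, Colec12 and Cd209g, and the ficolin Fcna. Their log2 fold changes were 1.21 (SE 0.22), 2.08 (SE 0.41), 1.25 (SE 0.25), 1.84 (SE 0.34) and 1.76 (SE 0.32), in that order. The 3 with the most counts among the rest were not called. Gas6, a ligand of the TAM receptors, was at 0.44 (adjusted p 0.164), Ltc4s, a synthase of leukotriene C4, at -0.09 (adjusted p 0.770), and the scavenger receptor Stab1 at 0.19 (adjusted p 0.591). Folr2, a folate receptor often used as a marker of these cells, had at most 1 count in any of the 8 libraries, and Vsig4 and Ms4a4a had at most 4.

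Genes of homeostatic microglia went the other way. Their summed level was 20472 to 22867 CPM in the pilot midbrain and 28806 to 29141 in the pilot striatum, and 20158 to 23422 in the second midbrain and 30617 to 35468 in the second striatum, so the regions did not overlap. Of 14 genes, 0 had a positive change in the joint fit and the median was -0.62. Siglech at -0.84 and Olfml3 at -0.62 were called lower, against 12 genes, or 0.0854%, called lower in all. The receptor Csf1r was at -0.31 (adjusted p 0.228) and Selplg at -0.50 (adjusted p 0.122). The sum of the 10 markers came to 7.43 to 9.87% of the sum of these microglia genes in the pilot midbrain and 2.24 to 3.38% in the pilot striatum, and to 12.3 to 12.8% in the second midbrain and 1.11 to 1.26% in the second striatum.

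Markers of blood leukocytes moved with the markers of border macrophages, and their part in the result was not tested. The summed monocyte markers were at 286 to 386 CPM in the pilot midbrain against 145 to 150 in the striatum, and at 697 to 3204 against 160 to 287 in the second cohort. Over all genes, 0.975% were called higher in the joint fit and 54.4% had a positive change. Of 12 monocyte genes, 3 were called higher in the joint fit (Ly6c2, Ccr2 and Ms4a4c) and 12 had a positive change. The most abundant, Plac8 and Chil3, were at 2.75 (adjusted p 0.116) and 2.05 (adjusted p 0.077). The neutrophil genes summed to 1151 to 1508 CPM in the pilot midbrain against 857 to 897, and to 4053 to 6663 against 943 to 1014 in the second cohort. Of 12 genes, 5 were called higher (S100a8, S100a9, Retnlg, Mmp9 and Cxcr2), with S100a9 at 3.08 (adjusted p 0.018), whereas Csf3r, also among the most abundant, was at -0.26 (adjusted p 0.491). Genes of T and NK cells summed to 84.3 to 99.98 CPM against 26.4 to 44.7 in the pilot, and to 147 to 279 against 8.59 to 50.9 in the second cohort. Of 7 tested, 1, Nkg7, was called (2.02, adjusted p 0.021), and Gzma was at 2.02 (adjusted p 0.125). All 7 had a positive change, among them Trbc2 at 2.06 (adjusted p 0.089, at most 23 counts) and Cd2 at 1.40 (adjusted p 0.219). Cd3e, Cd3g, Cd8a, Cd3d and Trac did not pass the filter of the joint fit. They had at most 1, 4, 6, 10 and 13 counts in any of the 8 libraries, in that order.

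Other cells that share a marker with the set were examined for that reason. Platelet genes bear on Pf4 and F13a1. They summed to 162 to 165 CPM in the pilot midbrain against 187 to 198 in the striatum, and to 123 to 156 against 189 to 192 in the second cohort. Of 6 tested, 3 had a positive change and the median log2 fold change was 0.02. None of 6 tested was called with limma, edgeR or DESeq2, 1 had an unadjusted p under 0.05 with limma, Gp9 and Itgb3, which have most of the list's counts, were at -0.42 and -0.37, Itga2b was at 1.25 (adjusted p 0.361) and Gp1bb at 0.83 (adjusted p 0.466), and Gp6 and Tubb1 had at most 1 count in any library. Lymphatic endothelium bears on Lyve1. Its genes summed to 7.40 to 20.6 CPM over all groups, with overlap between regions in both cohorts, none of 3 tested was called by any of the 3 tools or had an unadjusted p under 0.05 with limma, Prox1 was at 0.08 and Flt4 at -0.20, and Ccl21a was at 0 in all 8 libraries. Dendritic cells bear on Clec10a and Mgl2. Their genes summed to 137 to 161 CPM against 102 to 107 in the pilot and to 147 to 171 against 91.1 to 100.03 in the second cohort. Of 8 tested, 7 had a positive change in the joint fit, and the median log2 fold change was 1.601, against 1.69 for the 10 markers. None of the 8 was called with limma, where 6 had an unadjusted p under 0.05, 0 were called with edgeR and 3 with DESeq2. Of the most abundant, Cd209a was at 1.62 (adjusted p 0.208) and Batf3 at -0.08. The part of these 3 cell types in the levels of the shared markers was not tested.

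**Figure D4:**
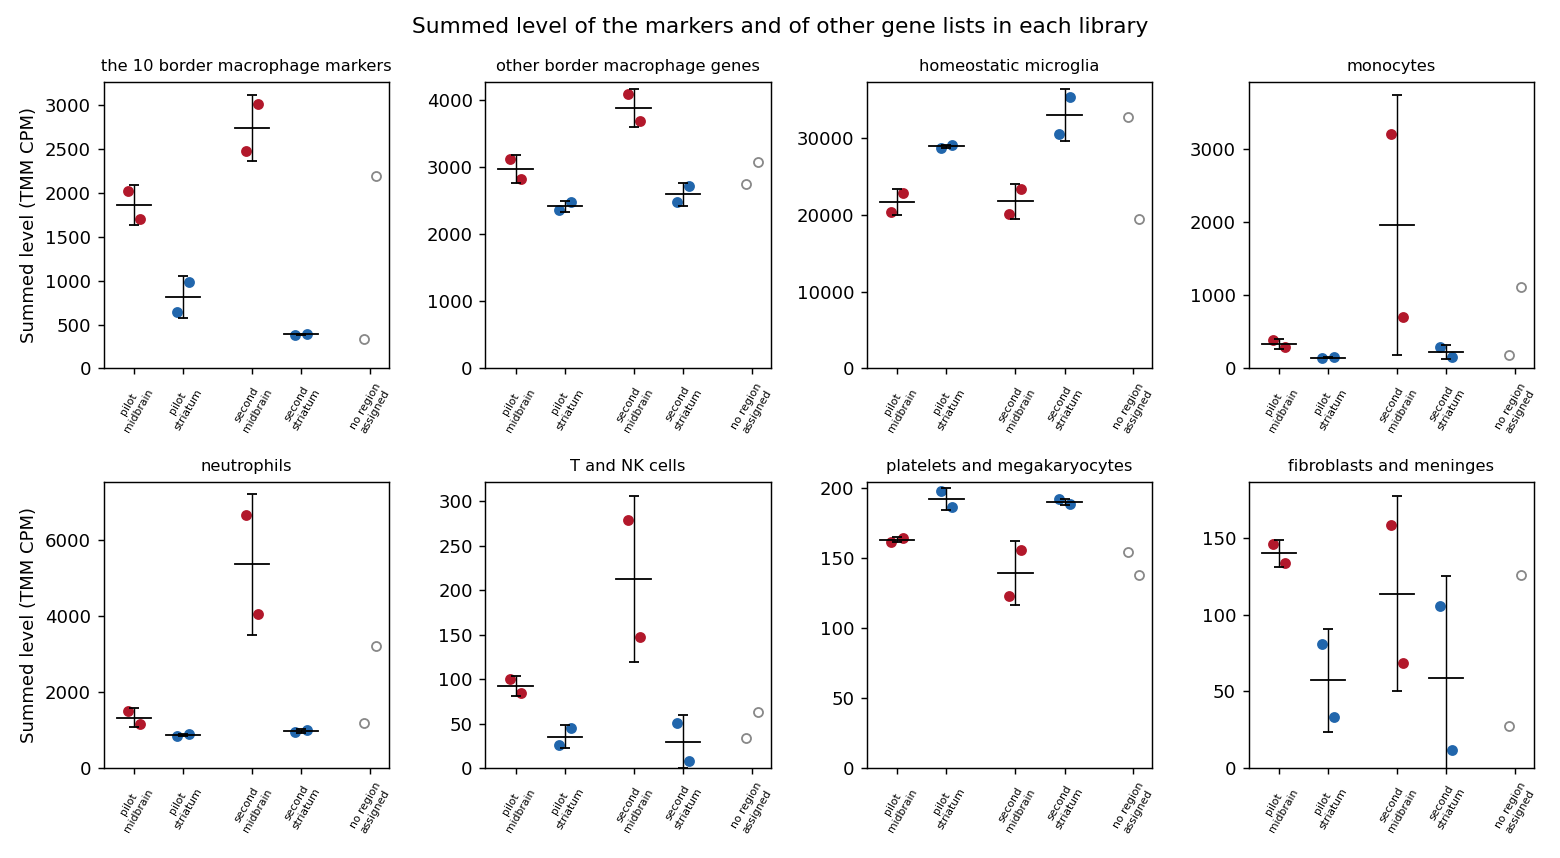
Summed level (y axis, TMM CPM, starting at 0) of the 10 border macrophage markers and 7 other gene lists in each library, with the mean (line) and SD (bar) of each group of 2 libraries and open circles for the 2 libraries given no region. The sums of the markers and of the monocyte, neutrophil and T and NK cell genes are higher in the midbrain of both cohorts. Those of homeostatic microglia and platelet genes are lower, although 3 of 6 tested platelet genes had a positive change in the joint fit. The second midbrain libraries stand far apart for monocyte genes (697 and 3204 CPM).

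Cells of the tissue around vessels and of the meninges were checked in the same way. The fibroblast and meninges genes summed to 134 to 146 CPM in the pilot midbrain against 33.3 to 81.0 in the striatum, and to 68.7 to 159 against 12.03 to 106 in the second cohort, where the regions overlapped. None of 8 tested was called with limma, where 6 had an unadjusted p under 0.05, and 1 was called with edgeR and 2 with DESeq2. All 8 had a positive change, with the matrix gene Dcn at 2.32 (adjusted p 0.185) and the collagen gene Col1a2 at 1.01 (adjusted p 0.199). Igf2 of this list was at 0 in all 8 libraries. Brain endothelium overlapped between regions in both cohorts, at 334 to 414 CPM against 397 to 422 in the pilot and 70.5 to 157 against 62.6 to 77.3 in the second, none of 8 was called by the 3 tools, 1 had an unadjusted p under 0.05 with limma, and Cldn5 was at 0.16 and Flt1 at -0.09. Mast cell genes had low sums, at 1.72 to 15.3 CPM over all groups. The summed counts were 1 in second striatum replicate 3 and 85 in pilot midbrain replicate 2. The sums were higher in the midbrain without overlap in both cohorts, with a ratio of the region means of 4.46 in the pilot and 2.93 in the second. Of 2 mast cell genes tested, 1, Cma1, was called (3.25, adjusted p 0.035), with Kit at -0.12. The part of mast cells in the result was not tested. Immediate early genes, which respond to handling of the tissue among other stimuli, summed to 19087 to 21547 CPM against 13614 to 20674 in the pilot and 19326 to 22835 against 10814 to 10986 in the second cohort. Of 10 immediate early genes tested, 2 were called higher (Fosb and Nr4a1), against 0.975% of all genes. All 10 had a positive change in the joint fit, against 54.4% of all genes. Their median log2 fold change was 0.645 in the joint fit, 0.254 in the pilot and 1.06 in the second cohort. Jun was at 0.65 (adjusted p 0.208) and Junb at 0.16 (adjusted p 0.660), and the part of immediate early genes in the result was not tested.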

How the data were processed

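The authors aligned the reads of 10 MARS-seq libraries to GRCm38 with STAR 2.5.3a, counted exonic reads per gene of Gencode M17 with featureCounts 1.6.0, and deposited raw counts without normalization (per the file headers, counted without strand). Symbols were matched to 53620 of 53715 identifiers. The study's own test was used: TMM scaling (edgeR 4.0.16), then voom with linear models and moderated statistics (limma 3.58.1, R 4.3.3). A gene entered a fit unless more than 50% of the fit's libraries had under 6 counts. Each cohort was called at a two-sided unadjusted p under 0.01, and the joint and interaction fits at a Benjamini-Hochberg adjusted p under 0.05. Intervals are at the 95% level. DESeq2 1.42.0 and the other alternatives are given in the closing section. The procedure was also run on simulated counts. Their spread was set the same for all genes, so that run does not cover the spread between these libraries. The 2 libraries with conflicting region labels were left out of every group. The markers and all gene lists were chosen with earlier results of these data known. Named were the 10 markers; of the further border macrophage genes, those called in the joint fit and the 3 with the highest mean count of the rest; of each other list, the 2 with the highest mean count; and the 10 genes most like the markers' mean profile (log2 CPM, prior count 2, at least 10 counts in at least 4 libraries). Other called genes of the cell lists, Itga2b, Gp1bb, Trbc2 and Cd2, and the genes named for low counts, were named after their values were seen. Promoters came from RefSeq (GRCm38.p6), and transcripts were aligned with Biopython 1.88.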

Additional observations from a re-analysis of the deposited data

Results flagged for a closer look

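The 2 libraries whose labels name both regions belong to no comparison, and the 10 markers were above the floor of 3 counts in both. In the library whose title names the midbrain and whose other label names the striatum, the markers summed to 339 CPM, with Pf4 at 95.4 CPM and Lyve1 at 8.56 CPM. In the library whose title names the striatum and whose other label names the midbrain, they summed to 2188 CPM, with Pf4 at 714 CPM and Lyve1 at 129 CPM.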

How the results depend on the processing

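The direction of all 10 markers in the joint fit was the same under every alternative that was run. Under a strict filter, 10 counts or more in each library, 8 markers remained testable and 4 were called in the joint fit. With the 2 unassigned libraries placed by their title, the markers called were 0 in the second cohort and 0 in the joint fit. Under that placement 0 markers were without overlap between regions, and the share over all genes was not counted. The interaction called 1 marker with DESeq2. Leaving out 1 library at a time gave 5 to 10 markers in the pilot, 6 to 10 in the second cohort, 0 to 10 in the joint fit and 0 to 1 for the interaction. Where only 1 library of a group was left, it was assumed to vary like the others. Over all genes, the joint fit called 149, against 237 with edgeR's quasi-likelihood test, 544 with DESeq2, 277 without a filter, 57 with the strict filter, 412 with sample quality weights, 0 and 440 with the unassigned libraries placed by title and by their other label, and 0 to 238 without 1 library. The pilot called 395, against 822 without a filter and 108 to 2445 without 1 library. The second cohort called 468, against 204 with the strict filter, 307 with thinned counts, 132 with placement by title and 393 to 1240 without 1 library. The interaction called 0, against 2 with DESeq2 and 0 to 7 without 1 library.

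With the replicate number as a block (replicate block), 10 markers were called in the pilot, 10 in the second cohort, 10 in the joint fit and 0 for the interaction, and 401, 988, 308 and 0 of all genes. Libraries with the same number did not deviate together (r = -0.03 in the pilot and 0.08 in the second cohort), so the numbers are not shown to pair the libraries.

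Each group held 2 libraries, and in the shallowest library, of 575709 counts, Lyve1 and Cd163 had 6 and 9 counts.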

Other observations

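In the same 2 libraries, Mrc1 was at 58.7 and 206 CPM, Cd163 at 10.4 and 139 CPM, F13a1 at 25.1 and 285 CPM and Cbr2 at 36.7 and 255 CPM, the library with the midbrain title first. Clec10a was at 15.9 and 148 CPM, Mgl2 at 9.18 and 88.0 CPM, Ms4a7 at 36.7 and 83.6 CPM and Dab2 at 42.8 and 140 CPM.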
